A study of Mus musculus with 4 samples.

Results

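Transcript levels of 32 genes of the vessel wall and its coverings were examined in the parasubthalamic nucleus (PSTh), a small nucleus of glutamatergic neurons in the lateral hypothalamus of the mouse. The genes were listed by name in 3 classes: 15 genes of brain endothelium and its barrier transporters, 8 genes of pericytes and vascular smooth muscle (mural cells), and 9 genes of meningeal or perivascular fibroblasts. They were chosen without a threshold on these values, but with earlier results of these data known. All 32 were found among the 25044 entries. Each of the 32 had a value above 0 in all 4 libraries, and each passed the filter of a mean of 0.1 FPKM (a fragment count scaled by transcript length and by library size) that left 17630 entries for testing. Foxc1 and Tbx18 were counted with the fibroblast class by their place in the list, although mural cells express them too.

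The study profiled bulk RNA of PSTh tissue from naive C57BL/6 mice, to learn which genes the nucleus expresses at rest. All 4 libraries belong to this 1 group; they carry no allele, agent or stress exposure in the labels, and no stressed animals were sequenced. Age and sex are not stated in the labels. No label beyond the numbering states that replicates 1 to 4 came from separate animals, so the tests below measure only the spread between these libraries, which may be technical.

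Brain capillaries are tubes of endothelial cells sealed by tight junctions, which form the blood-brain barrier and carry nutrients and drugs through dedicated transporters. Pericytes sit within the basement membrane around capillaries, and smooth muscle cells ring the arterioles and contract to set blood flow. Fibroblasts that make collagen lie in the meninges, the membranes over the brain surface, and along the larger vessels that enter from it. In bulk tissue, fewer cells of a type and less RNA per cell cannot be told apart.

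The libraries were alike in scale. Their summed values ran from 428612 to 442836 FPKM, the spacing of the values implied 19400000 to 21100000 fragments per library, and mitochondrial transcripts made up 19.1% to 22.2% of the total. No read counts were recovered, so no counting interval is given. Replicate 1 stands apart in some gene lists: all 7 genes of a caudal Hox list, which marks the caudal nervous system, were listed at 0 in replicates 2, 3 and 4. They summed to 13.9 FPKM in replicate 1. Replicate 1 also had the highest haemoglobin transcripts and the lowest oligodendrocyte transcripts, and these values are given below.

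A promoter of 1 gene per class shows the DNA just upstream of genes that behaved differently between libraries: Cldn5, the endothelial reference gene, Rgs5, the steadiest mural gene, and Col3a1, a collagen gene that was highest in replicate 1. RefSeq's table (GRCm38.p6) held a promoter for 21 of the 32 genes. Each run is the 250 bases before the annotated start, 5′ to 3′ on the gene's strand, with no annotated exon in it, and capitals mark matches, on either strand, to the CCAAT box, to the GC box GGGCGG or to the TATA motif TATAA.
Cldn5: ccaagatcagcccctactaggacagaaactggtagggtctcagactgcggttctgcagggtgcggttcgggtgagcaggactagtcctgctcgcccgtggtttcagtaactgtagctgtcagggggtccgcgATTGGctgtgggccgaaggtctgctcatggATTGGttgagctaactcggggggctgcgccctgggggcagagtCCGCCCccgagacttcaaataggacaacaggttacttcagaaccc
Rgs5: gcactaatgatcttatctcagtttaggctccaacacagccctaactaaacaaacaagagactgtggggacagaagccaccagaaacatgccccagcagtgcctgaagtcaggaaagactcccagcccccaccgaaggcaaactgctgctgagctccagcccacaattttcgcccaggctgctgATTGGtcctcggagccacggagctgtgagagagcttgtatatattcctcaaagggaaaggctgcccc
Col3a1: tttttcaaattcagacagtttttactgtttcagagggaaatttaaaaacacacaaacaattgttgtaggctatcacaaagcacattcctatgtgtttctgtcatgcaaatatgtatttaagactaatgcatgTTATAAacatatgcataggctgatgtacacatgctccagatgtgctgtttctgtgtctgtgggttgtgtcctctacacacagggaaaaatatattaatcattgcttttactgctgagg
The windows lie on the plus strand at chr16:18776597-18776846, chr1:169655251-169655500 and chr1:45311288-45311537. Cldn5 held 2 matches to CCAAT on the other strand, starting 118 and 88 bases before the start, and 1 to GGGCGG on the other strand, 45 bases before it. Rgs5 held 1 match to CCAAT on the other strand, 67 bases before the start. Col3a1 held TATAA 117 bases before the start, overlapped by a match on the other strand 118 bases before it. Among 32851 mouse promoter windows of the same length, 33.8% held CCAAT, 32.7% held GGGCGG and 22.8% held TATAA. The CArG box of smooth muscle genes was in 8.59% of all windows and in none of these 3. These matches describe letters only.

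The endothelial class had a median level above that of all genes tested in every library. Its 15 genes had means from 2.63 to 64.2 FPKM, and the class median on the log2(FPKM + 0.1) scale was 3.20 ± 0.11 (SD, n = 4), against 2.31 ± 0.04 for all genes tested. Not every gene was high: the means of Kdr, Tek, Tie1, Cdh5 and Emcn lay above only 38.6% to 49.5% of genes tested. Ly6c1, a surface protein of capillary endothelium, had the highest mean of the class, at 65.3, 62.1, 71.0 and 58.3 FPKM in replicates 1 to 4. Slc2a1, the glucose carrier of the barrier, followed at 43.9, 42.8, 45.7 and 43.4 FPKM, and Ly6a, a related surface protein, at 33.6, 35.1, 39.8 and 32.7 FPKM. Slc2a1 differed little between libraries, with a coefficient of variation (CV) of 2.79%. Ly6c1 (8.35%) and Ly6a (8.99%) lay nearer the class median of 9.56%. Cldn5 encodes the main tight junction claudin of brain endothelium and lies at chr16:18776847-18778262. It read 43.2, 33.7, 35.1 and 27.4 FPKM, highest in replicate 1 and lowest in replicate 4.

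The other transporters and surface genes of the endothelium were lower. Mfsd2a, the lipid carrier that restrains transcytosis, averaged 17.2 ± 1.44 FPKM (SD, n = 4) and Slco1a4, an organic anion carrier, 16.4 ± 2.41. Abcb1a, the drug efflux pump P-glycoprotein, averaged 7.58 ± 0.775 FPKM, far above its copy Abcb1b, which ranged from 0.481 to 0.656 FPKM. The adhesion genes Esam and Pecam1 averaged 10.8 ± 1.11 and 8.94 ± 0.979 FPKM, and Cdh5, the cadherin of endothelial junctions, 4.11 ± 0.393. Emcn, a sialomucin of veins and capillaries, read 6.50, 3.99, 4.25 and 4.44 FPKM, so that replicate 1 lay above the other 3.

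Receptors of vessel growth made up the 3 lowest genes of the class, with Flt1 above them. Flt1, a receptor for vascular endothelial growth factor (VEGF) that also acts as a decoy, averaged 8.59 ± 0.382 FPKM, and Kdr, the main signalling receptor for VEGF, 2.63 ± 0.369. Tek, the angiopoietin receptor, averaged 3.78 ± 0.272 FPKM. Tie1, its partner receptor, read 4.02, 4.09, 3.96 and 3.94 FPKM, the smallest relative spread among the 32 genes (CV 1.66%). Of 11 listed ligands and co-receptors of these pathways, Vegfb was highest (75.8, 78.3, 73.0 and 72.3 FPKM), and Vegfa followed at 14.3 to 16.3 FPKM.

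Levels were compared within libraries with Cldn5 as reference, by limma on the log2(FPKM + 0.1) difference, as a two-sided test, and p-values were adjusted by Benjamini-Hochberg over all 17629 genes tested. Of the other 31 genes, 2 were higher than Cldn5, where 8.59% of all genes tested were, 26 were lower, where 83.7% were, and 3 did not pass. Ly6c1 was higher by 0.89 on the log2 scale (SE 0.17, adjusted p = 0.00183) and Vtn, a mural gene, by 0.83 (SE 0.16, adjusted p = 0.0017), each in 4 of 4 libraries. Slc2a1 (0.35, adjusted p = 0.101), Ly6a (0.03, adjusted p = 0.869) and Rgs5 (-0.07, adjusted p = 0.711) did not pass in limma. Kdr lay lowest of the endothelial class, at -3.67 (SE 0.19, adjusted p = 1.11e-06 in limma). FPKM divides by transcript length, and with values multiplied by the longest transcript the direction against Cldn5 turned for Flt1 (0.28), Slco1a4 (0.35), Ly6a (-0.53), Rgs5 (1.46), Igf2 (1.17) and Dcn (0.89). Of these, Rgs5, Igf2 and Dcn then passed as higher and Ly6a as lower (adjusted p = 0.0365 in limma). The calls of Ly6c1 (0.15, adjusted p = 0.48 in limma), Abcb1a, Mfsd2a and Acta2 were lost with those values, and Slc2a1 passed as higher (1.55). Without replicate 2 or 3, Igf2 no longer passed against Cldn5 (adjusted p = 0.106 and 0.11 in limma).

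The mural class spanned a wide range of levels. Its 8 genes had means from 1.56 to 61.8 FPKM and a class median of 2.84 ± 0.13 (SD, n = 4) on the log2 scale. Vtn, vitronectin, which brain pericytes make, was highest at 74.9, 61.6, 61.1 and 49.6 FPKM. Rgs5, a regulator of G protein signalling in pericytes, read 31.0, 32.1, 34.5 and 33.1 FPKM (CV 4.56%). So Rgs5 was lowest in replicate 1 by a small margin, and Vtn was highest there.

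The contractile genes did not share 1 order across libraries. Acta2, smooth muscle actin, read 26.5, 19.9, 17.9 and 16.3 FPKM, and Tagln, an actin-binding protein of smooth muscle, 14.1, 10.1, 8.98 and 9.60 FPKM. Both were highest in replicate 1, which lay 1.47 and 1.48 times above the mean of the other 3. Myh11, the smooth muscle myosin heavy chain, was highest in replicate 2, at 2.12, 2.53, 2.05 and 2.16 FPKM. Tagln overlaps exons of the antisense gene Pcsk7 (4.03 to 4.89 FPKM), and it is not known whether the counting used strand, so some of its reads could belong to Pcsk7.

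Pdgfrb, the receptor that holds pericytes on vessels and is shared by all mural cells, read 4.45, 5.12, 4.93 and 4.39 FPKM. The pericyte genes Higd1b, a mitochondrial protein, and Abcc9, a subunit of a potassium channel, averaged 2.85 ± 0.415 and 1.56 ± 0.160 FPKM, and both were lowest in replicate 1. Against Pdgfrb in the same limma fit, 4 of the other 7 mural genes were higher, where 46.7% of all genes tested were. The other 3 were lower, where 45.2% were. The mean of Pdgfrb lay above 49.2% of genes tested, so such a split is not particular to the class. The higher genes were Vtn (3.67), Rgs5 (2.77), Acta2 (2.05) and Tagln (1.14, adjusted p = 0.000498), and the lower ones Higd1b (-0.72, adjusted p = 0.000462), Myh11 (-1.06) and Abcc9 (-1.54). With values multiplied by transcript length Tagln turned lower than Pdgfrb (-0.60, adjusted p = 0.00669 in limma).

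The fibroblast class spanned a wide range of levels and varied most. Its 9 genes had means from 0.669 to 24.1 FPKM and a class median of 1.05 ± 0.41 (SD, n = 4) on the log2 scale. Igf2, the insulin-like growth factor made by meninges and choroid plexus, lies at chr7:142650766-142666816 and read 35.5, 21.3, 20.2 and 19.4 FPKM. Dcn, decorin, a proteoglycan that coats collagen fibrils, lies at chr10:97479609-97518143 and read 26.6, 25.4, 14.3 and 14.1 FPKM. Igf2 was high in replicate 1 alone, whereas Dcn was high in replicates 1 and 2. Slc6a13, a GABA and taurine carrier of the meninges at chr6:121300227-121337733, read 9.03, 5.13, 4.93 and 4.94 FPKM, again high in replicate 1 alone.

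Collagens and other matrix genes were highest in replicate 1, with replicate 2 next. Col1a2, a chain of collagen type I, read 7.44, 5.03, 4.33 and 3.97 FPKM, and its partner chain Col1a1 2.78, 2.16, 1.85 and 1.36 FPKM. Col3a1, the chain of collagen type III whose promoter is shown above, read 2.35, 1.93, 1.27 and 1.14 FPKM. Lum, lumican, a proteoglycan like Dcn, read 2.19, 2.12, 0.800 and 1.15 FPKM, so that it also was high in replicates 1 and 2. The transcription factors were lower: Foxc1 read 1.76, 1.29, 1.19 and 1.33 FPKM, and Tbx18 0.744, 0.662, 0.724 and 0.546 FPKM.

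Against Dcn in the same limma fit, 7 of the other 8 fibroblast genes were lower, where 68.3% of all genes tested were. None was higher, where 12.7% were. Dcn had the highest mean of the class after Igf2, so most of these differences were bound to be negative. The differences ran from -1.71 for Slc6a13 (SE 0.27, adjusted p = 0.000762) to -4.66 for Tbx18 (SE 0.28, adjusted p = 7.22e-06). Igf2 did not pass (0.28, adjusted p = 0.355). Dcn itself was lower than Cldn5 by 0.84 on the log2 scale (adjusted p = 0.0053 in limma).

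**Figure D1:**
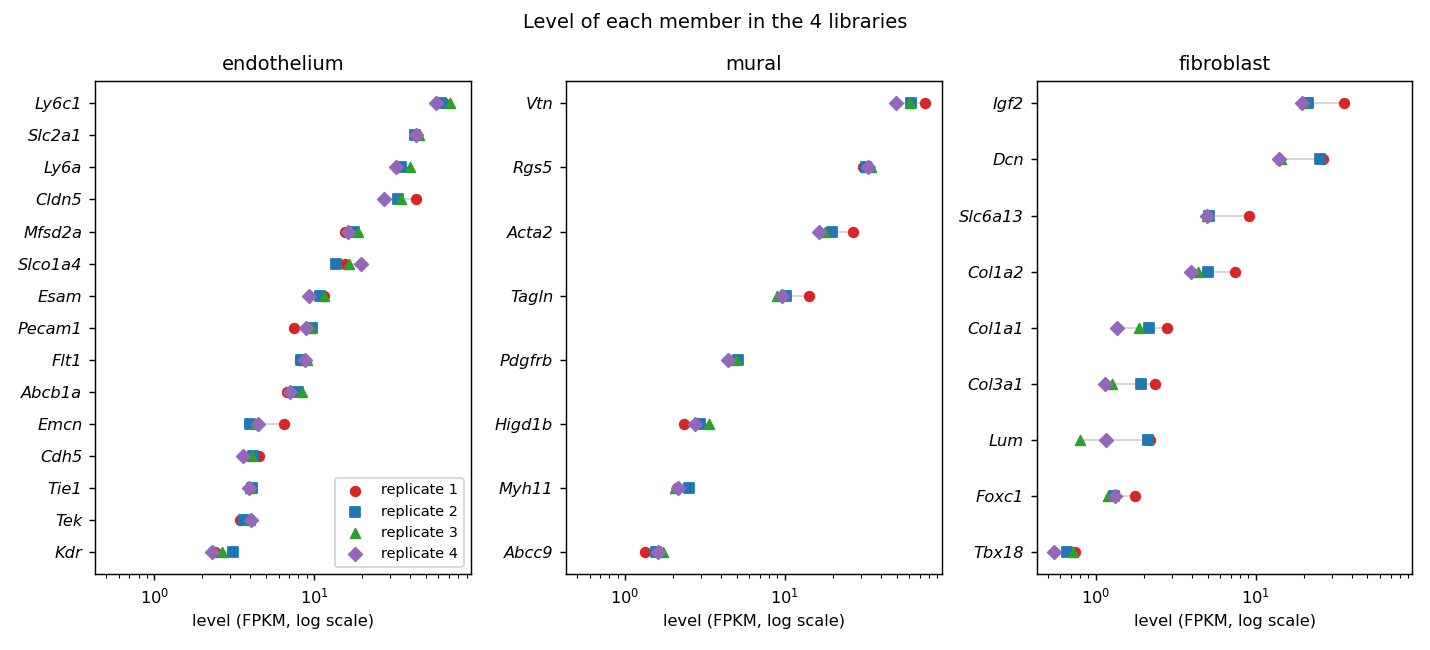
Level of each of the 32 genes in FPKM (horizontal log axis), by class, with 1 marker per library. The 4 markers of Tie1 and Slc2a1 nearly coincide, while replicate 1 lies to the right of the other 3 for all 9 fibroblast genes.

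The 3 classes were then compared across libraries. All 9 fibroblast genes had their highest value in replicate 1, where 26.9% of all genes tested had theirs. Of the endothelial genes, 3 of 15 were highest in replicate 1, 3 in replicate 2 (background 29.1%), 7 in replicate 3 (22.5%) and 2 in replicate 4 (21.5%). Of the 8 mural genes, 3 were highest in replicate 1, 2 in replicate 2, 3 in replicate 3 and none in replicate 4. That a list joining mural and fibroblast genes had a higher median in replicate 1 was known when the classes were chosen, so the fibroblast count is no independent evidence of it. With libraries rescaled by the median ratio, the endothelial counts in replicates 2, 3 and 4 were 1, 10 and 1, and 1 mural gene was highest in replicate 2.

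The size of the difference also varied among the fibroblast genes. Replicate 1 over the mean of the other libraries was 1.81 for Slc6a13, 1.75 for Igf2, 1.67 for Col1a2, 1.63 for Col3a1 and 1.62 for Lum. It was 1.55 for Col1a1, 1.48 for Dcn, 1.39 for Foxc1 and 1.16 for Tbx18. Replicate 2 was the next highest for 7 of the 9, against 11.4% of all genes tested highest in replicate 1 with replicate 2 next. The median log2 difference of replicate 1 to the mean of the others was 0.70 for the fibroblast class, -0.08 for the endothelial class, -0.09 for the mural class and -0.00 for all genes tested.

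The summed level of the fibroblast class was 88.4, 65.0, 49.6 and 47.9 FPKM in replicates 1 to 4, with replicate 1 highest. The endothelial sum was 272, 261, 285 and 250 FPKM and the mural sum 157, 136, 135 and 119 FPKM. The ratio of fibroblast to endothelial sum was therefore 0.324, 0.249, 0.174 and 0.191. Within the mural class, Acta2 over Rgs5 was 0.855, 0.619, 0.519 and 0.491.

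The lowest values were counted too. In replicate 4, where 18.8% of all genes tested were lowest, 7 of 15 endothelial, 3 of 8 mural and 6 of 9 fibroblast genes were lowest. In replicate 1 (28.5% of all), 5 endothelial and 3 mural genes were lowest, and in replicate 2 (16.8%) 3 endothelial genes. In replicate 3 (35.9%), 2 mural and 3 fibroblast genes were lowest.

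**Figure D2:**
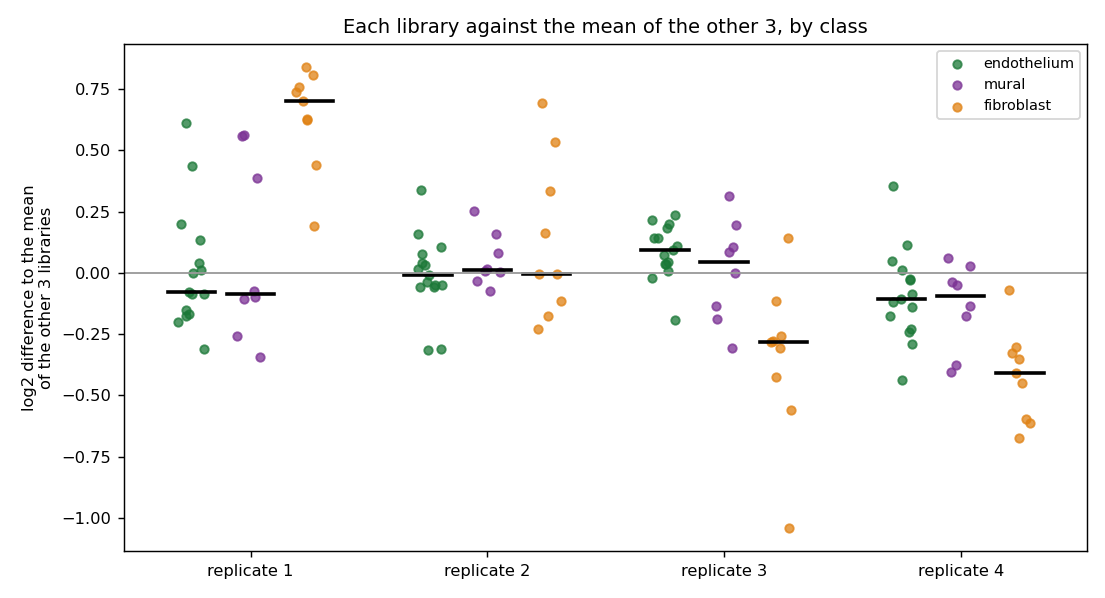
Log2 difference of each library to the mean of the other 3 (vertical axis), with 1 point per gene, coloured by class, for replicates 1 to 4. The fibroblast points of replicate 1 lie between 0.19 and 0.84, all above 0, while the endothelial and mural points of every library lie on both sides of 0.

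Further lists of related genes, none of them members, were summed by library. Of 20 other meningeal fibroblast genes 19 were tested. Of these, 15 were highest in replicate 1, where 26.9% of all genes tested were, and the list summed to 117, 68.6, 71.4 and 64.3 FPKM. The list was chosen with earlier results of these data known, so its count is no independent evidence of the fibroblast result. Mgp, an inhibitor of calcification, read 43.4, 27.3, 31.0 and 28.1 FPKM, and Fmod, a collagen-binding proteoglycan, 15.4, 7.07, 6.77 and 6.06 FPKM. Of 9 other pericyte genes none was highest in replicate 1, against the same 26.9% of all genes tested (sum 32.3, 36.1, 36.8 and 35.0 FPKM; Mcam and Art3 lead it). Of 9 tested smooth muscle genes 4 were highest there, against 26.9% of all genes tested (sum 41.6, 39.3, 38.9 and 35.2 FPKM; Myl9 and Tpm2 lead it).

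Vessel subtypes, signalling and matrix lists differed in which library was highest. Arterial genes (led by Hey1 and Efnb2) summed to 32.9 to 40.4 FPKM, with 4 of 8 highest in replicate 1 (26.9% of all genes tested). Venous genes (led by Ackr1 and Vcam1) summed to 50.8 to 61.4 FPKM, with 6 of 8 highest in replicate 4 (21.5% of all). Other barrier transporters (led by Slc3a2 and Tfrc) summed to 161 to 168 FPKM, other junction genes (led by Jam2 and Tjp1) to 61.7 to 66.3 FPKM and the Wnt pathway of the barrier (led by Tspan12 and Wnt7b) to 53.9 to 55.8 FPKM. Endothelial transcription factors (led by Sox18 and Lef1) summed to 25.6 to 38.4 FPKM, highest in replicate 3, where Lef1 read 10.1 FPKM against 3.01 to 3.31. The PDGF, Notch and TGF-beta list (led by Pdgfa and Eng) summed to 49.4 to 53.9 FPKM, the VEGF and angiopoietin list to 107 to 117 FPKM and the basement membrane list (led by Sparc and Lamc1) to 651 to 777 FPKM. Sparc alone made up 621 to 748 FPKM of that sum. Of the 12 basement membrane genes 6 were highest in replicate 1 (26.9% of all genes tested) and 8 lowest in replicate 4 (18.8% of all). Against Cldn5 in limma, 1 barrier transporter (Slc3a2), 1 VEGF ligand (Vegfb) and 1 basement membrane gene (Sparc) were higher, where 8.59% of all genes tested were. Ackr1 and Mgp did not pass.

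Markers of other tissue also differed between libraries, several of them in replicate 1, and their part in the fibroblast result was not tested. All 4 tested haemoglobin genes were highest in replicate 1, where 26.9% of all genes tested were, with Alas2 untested and at 0 in replicate 2 (list sum 44.4, 2.75, 10.5 and 15.3 FPKM; Hbb-bs read 18.9, 1.33, 3.50 and 6.78). The caudal Hox list was led by Hoxb8 (4.81 FPKM in replicate 1) and Hoxa7 (3.80). All 5 oligodendrocyte genes, led by Mbp and Mobp, were lowest in replicate 1, where 28.5% of all genes tested were (sum 5355, 6214, 7793 and 7260 FPKM). Border macrophage genes summed to 6.15, 5.13, 5.99 and 3.59 FPKM. Of the 7, 1 was highest in replicate 1 (26.9% of all genes tested), 2 in replicate 2 (29.1%) and 4 in replicate 3 (22.5%). Pf4 was the gene highest in replicate 1, at 2.74 FPKM against 1.09 to 1.20. Cbr2, next in level, was highest in replicate 3, at 1.16, 1.33, 1.91 and 0.499 FPKM. The list of choroid plexus epithelium, which also makes Igf2, summed to 9.85, 11.5, 9.32 and 59.4 FPKM and was led by Ttr and Otx2. Ttr read 0.587, 1.15, 1.99 and 49.7 FPKM, and the other 8 genes summed to 9.27, 10.3, 7.33 and 9.69 FPKM. Hormone genes of the pituitary were high in replicate 2, as Dcn and Lum were: Pomc read 8.65, 30.1, 2.83 and 5.70 FPKM, and Cga, named after its values were seen, 2.34, 12.1, 0.772 and 0.0676 FPKM.

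Astrocyte endfoot genes (led by Kcnj10 and Mlc1) summed to 279 to 289 FPKM and neuronal genes (led by Snap25 and Tubb3) to 1786 to 1983 FPKM.

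**Figure D3:**
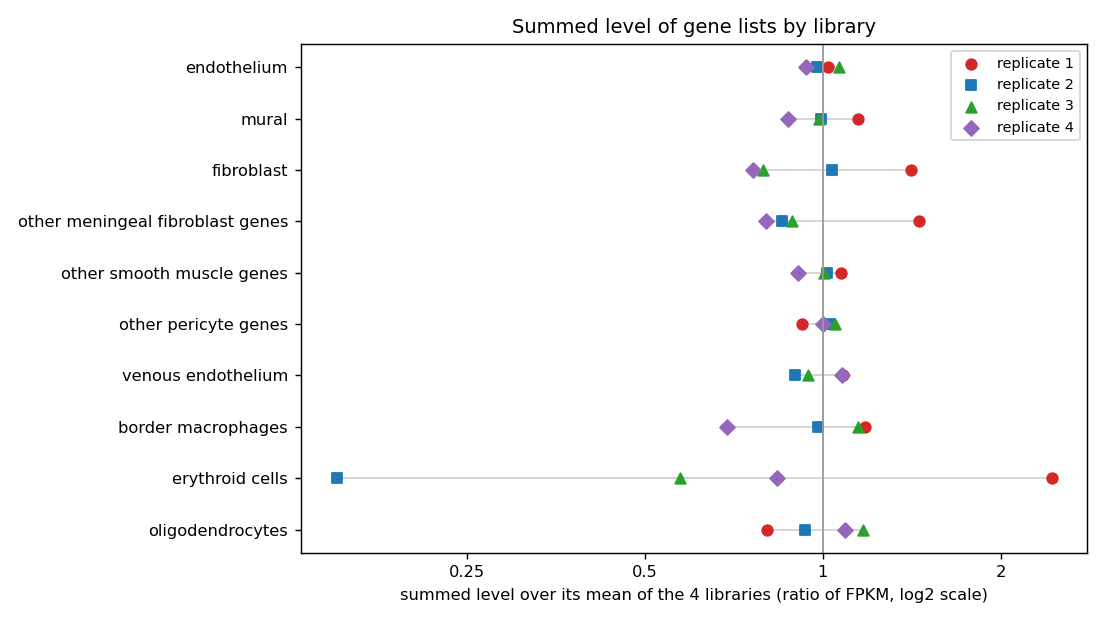
Summed level of the 3 classes and of other gene lists in each library, divided by its mean over the 4 libraries (horizontal log2 axis), with 1 marker per library. Replicate 1 lies to the right for the fibroblast members, the other meningeal fibroblast genes and the erythroid genes, and to the left for the oligodendrocyte genes.

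The spread of each gene between libraries was set against that of genes of like level, by an F test against limma's trended prior variance. None of the 17630 genes was called at an adjusted p of 0.05 (0% of all), so none of the 32 was, and 1031 genes (5.85%) had an unadjusted p under that value. The genes with such an unadjusted p were 5 of 9 fibroblast genes, 2 of 8 mural genes and 1 of 15 endothelial genes. The classes were chosen with the higher replicate 1 level of mural and fibroblast genes known. These counts, and the class medians of variance below, are therefore no independent evidence of it. Genes that are high in the same library are also not separate observations. Dcn had 20.4 times the variance of genes of like level (unadjusted p = 0.00544, adjusted p = 0.465 in limma) and Igf2 14.4 times (unadjusted p = 0.0108, adjusted p = 0.579 in limma). Slc6a13, Lum and Col1a2 followed, then Acta2 and Vtn of the mural class and Cldn5 of the endothelium, with adjusted p from 0.786 to 0.834 in limma. Of the 32 genes, 8 had an unadjusted p under 0.05, against 1 without replicate 1, 4 without replicate 4, 2 with no filter on low values and none with a prior without trend.

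The median variance ratio was 6.44 for the fibroblast class, 1.13 for the endothelial class, 0.812 for the mural class and 0.930 for all genes tested. The median CV was 31.8%, 9.56% and 12.4% for these classes and 12.2% for all. Without replicate 1 it was 14.0%, 7.89% and 8.97%, and 10.9% for all.

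**Figure D4:**
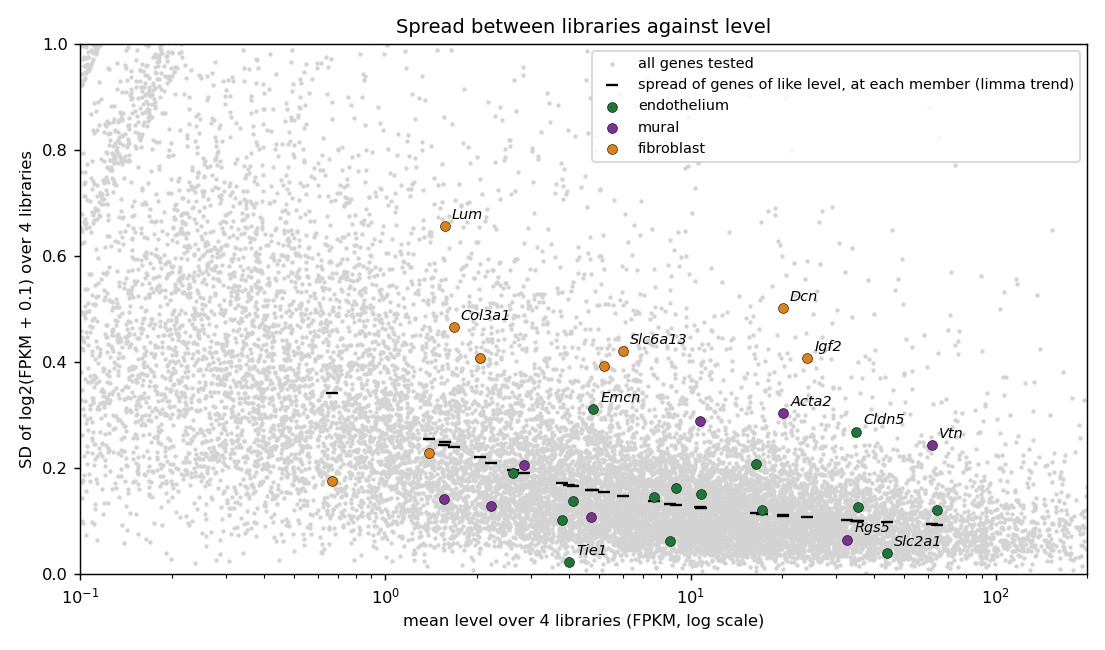
SD of log2(FPKM + 0.1) over the 4 libraries (vertical axis, shown from 0 to 1) against mean FPKM (log axis, shown from 0.1 to 200), for all genes tested (grey) and the 32 genes (coloured by class), with black bars at the spread of genes of like level. Dcn (SD 0.50) and Igf2 (0.41) lie far above their bars, and Tie1 (0.02) and Slc2a1 (0.04) below.

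Some levels could include reads of related genes. Of the 30-base windows of the longest transcript, 76% of Igf2 occur in the overlapping gene Gm49394 (0.00761 to 0.0591 FPKM), 58.5% of Ly6c1 in other genes, chiefly Ly6c2 (1.07 to 2.06 FPKM), 23.6% of Abcb1a, 23% of Ly6a and 9.07% of Slco1a4. For the other 27 genes the share was 2.02% or less. In all, 7 of the 32 genes overlap another gene by exons, and the sources used here do not say how shared reads were counted.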

How the data were processed

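Total RNA was extracted with TRIzol and mRNA libraries were made for Illumina sequencing, per the labels' protocols. No label or header names the unit of the values; the deposited numbers were treated as FPKM because of how they scale with transcript length. The build is GRCm38, per the submitters' processing notes; for aligner, quantifier, annotation and strand setting nothing is given in the sources used here. Symbols and coordinates came from GENCODE M21 (22022 of 22036 Ensembl identifiers matched; 3008 further loci have none). The column of the third sample is headed with a letter and was assigned by its title.

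Levels were log2(FPKM + 0.1), which makes differences between low genes look smaller. Genes whose mean reached 0.1 FPKM were tested in limma 3.58.1 (R 4.3.3), with Python 3.11.15 for tables. Each gene's difference to Cldn5, Pdgfrb or Dcn in the same library was fitted with an intercept, two-sided, threshold 0.05. Because all differences share the reference gene, the prior degrees of freedom were limited to those found when the levels themselves were fitted. That limit was first 1.63, from a fit without a trend, and was changed to the 3.78 of a trended fit after member values had been seen. Of 93 comparisons of members with a reference 1 changed: Rgs5 against Dcn passed with the second limit (0.76, adjusted p = 0.0492 in limma) but not with the first (adjusted p = 0.0638), and it is not used as a result. For Pdgfrb limma's own prior (2.51) was lower than the limit and was kept. The variance test used limma's trended robust prior (4.28 degrees of freedom). Scripts were tested on simulated data, and that simulation was redesigned once, since its first version moved too few genes to be like these comparisons.

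The members and lists were chosen with earlier results of these data known. Named genes are all members, the 2 highest genes of each other list and any list gene called by the variance test; 2 of the other lists are not reported here in full. The printed promoters were limited to windows without an annotated exon, after the first picks proved to include some. Alternatives changed the added value, filter, scaling, prior, length and libraries.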

Additional observations from a re-analysis of the deposited data

Results flagged for a closer look

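Dixon's test found 1 library distant from the rest in 6 of 59 values, 2 of them among the 32 members. Chance alone flags about 1 in 20 of values that are independent and chosen beforehand. These counts cannot be judged by that rate, because members and lists were chosen with earlier results known. The class sums and their ratios also hold the same genes as the members. Of the 6, 4 lay in replicate 1 and 2 in replicate 4. Igf2 read 35.5 FPKM in replicate 1 against 19.4 to 21.3 in the others, and Slc6a13 9.03 against 4.93 to 5.13. The summed level of the other meningeal fibroblast genes was 117 FPKM in replicate 1 against 64.3 to 71.4. The caudal Hox list summed to 13.9 FPKM in replicate 1 and to 0 in the others. In replicate 4 the choroid plexus list summed to 59.4 FPKM against 9.32 to 11.5, and the astrocyte endfoot list was low at 279 FPKM against 288 to 289. Dcn, high in 2 libraries, cannot be found by a test for a single distant one.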

How the results depend on the processing

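Counts of members higher or lower than each reference stayed within 1.5 times under every alternative run, with 1 exception. Multiplying values by transcript length gave 5 members higher than Cldn5 in place of 2, and turned Flt1 (0.28), Slco1a4 (0.35), Ly6a (-0.53), Rgs5 (1.46), Igf2 (1.17) and Dcn (0.89) against Cldn5 and Tagln (-0.60) against Pdgfrb. It also ended the calls of Ly6c1 (0.15), Abcb1a, Mfsd2a and Acta2 against Cldn5, and Ly6a then passed as lower (adjusted p = 0.0365 in limma). With FPKM Ly6a did not pass, and it also turned without replicate 3 (-0.017) or replicate 4 (-0.041). Its range was -0.041 to 0.164 over the 4 libraries left out in turn. With the untrended limit on the prior, chosen before the one used, every such count was the same. The class medians with 1 FPKM added were 3.33 (endothelium), 3.02 (mural) and 1.58 (fibroblast); with Foxc1 and Tbx18 moved to the mural class its median was 1.91, and the fibroblast median without them 2.36. Leaving out 1 replicate gave medians of 3.17 to 3.25, 2.78 to 2.88 and 0.90 to 1.22. Of the fibroblast genes, 9 were highest in replicate 1 under both scalings. Leaving out replicate 2, 3 or 4 cannot lower that count, and a filter on the mean can only remove genes. Neither therefore tests it (9 again, and 8 of 8 with a mean of 1 FPKM or more). With the median ratio, endothelial genes highest in replicates 2, 3 and 4 numbered 1, 10 and 1. Endothelial genes highest in replicate 1 numbered 6 without replicate 3, chosen after seeing the data. The variance test called no member under any alternative; over all genes it called 2 without replicate 3. Members at an unadjusted p under 0.05 fell from 8 to 2 with no filter and to 0 with a prior without trend. No paired analysis was possible because there is only 1 group. Depth per gene is unknown, so counting error was not assessed.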

Other observations

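Relative levels of members within 1 library, chosen after their values were seen and given as values only, differed between libraries. Emcn over Pecam1, both endothelial, was 0.861, 0.413, 0.443 and 0.496 in replicates 1 to 4. Cldn5 over Pecam1 was 5.73, 3.49, 3.66 and 3.06. Dcn over Col1a2, both fibroblast, was 3.57, 5.05, 3.30 and 3.54, so that replicate 2 differed from the others, whereas Col1a2 over its partner chain Col1a1 ranged from 2.33 to 2.91.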
